A study of Mus musculus with 6 samples.

Results

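The mucosa of the glandular stomach was compared between an A4gnt-null and a wild-type sample of the mouse at 10 weeks of age, on 2 of the 6 arrays of the series. The other 4 arrays hold the same genotypes at 5 and 50 weeks. The pair was taken by its labels, as the array labelled wild type and the array labelled A4gnt null at 10 weeks. All samples were of the C57BL/6J strain, and total RNA came from mucosa that had been taken off the muscle layer. There was 1 array for each genotype and age, with no replicate, so the comparison at 10 weeks carries no p-value and describes these samples only. Which part of A4gnt was removed is not in the labels, nor whether the RNA came from 1 mouse or several. The wild-type arrays lay on slide 1 and the null arrays on slide 2, each with its own scan, so genotype, slide and scan cannot be told apart. On both 10-week arrays the Y-linked genes Ddx3y (320.2 and 222 units) and Eif2s3y (649.5 and 649 units) were well above background and Xist, the RNA of the inactive X chromosome, was not.

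The glands of the stomach body hold parietal cells, which secrete acid, chief cells, which secrete pepsinogen, and mucous neck cells, while surface cells make another mucus. The glands of the antrum hold mucous cells and gastrin cells and few parietal cells. A4gnt encodes the enzyme that adds α1,4-linked N-acetylglucosamine to the ends of O-glycans, mostly on the gland mucin Muc6. Mice without it lack this sugar on gastric gland mucus and are known for antral hyperplasia and tumours that appear with age.

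A4gnt itself was read by 1 probe of 60 bases on chromosome 9 (chr9:99521093-99521152, plus strand, mm9), whose opening 30 bases are shown because they check the genotype labels.

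A4gnt probe: aaagagggcaagactgtggttagaggaagc

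Its processed signal, a background-subtracted fluorescence intensity in scanner units, was 325 on the wild-type array and 2.94 on the null array at 10 weeks. It was not well above background on the null array, which gives a fold of at least 25.7. Such a bound sets the bright array against the lowest signal called well above background on the dim array, or the probe's own signal on that array where this is higher. The wild-type arrays of 5 and 50 weeks gave 165 and 264 units and the null arrays 2.30 and 2.11, so the groups did not overlap.

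Of 43020 non-control spots, 59.2% were well above background on the wild-type and 56.5% on the null array of 10 weeks, and the 75th percentiles of their signal were 357.1 and 327.5 units. All differences are null minus wild type, on the log2 scale, after each array was divided by its 75th percentile. Replicate spots of the same probe gave a difference an SD of 0.0944, which covers spot error and not the spread between mice. The number of arrays limits the precision.

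The wild-type 10-week array stood apart from the other 5 in genes of the liver. The summed signal of 12 liver genes was 100.2 times the 75th percentile on it, against 18.6 and 21.4 on the 5-week and 50-week wild-type arrays and 23.5, 9.53 and 8.52 on the null arrays of 5, 10 and 50 weeks. Some genes of squamous epithelium, the lining of the forestomach, such as Krt5 (470.4 and 612 units) and Krtdap (524 and 633 units), were also high on the 10-week and 50-week wild-type arrays, but the list's summed signal did not set these arrays apart (47.05 and 45.8 times the 75th percentile, against up to 60.3 on the null arrays). The medians of the main lists are therefore also given with the wild-type array of 50 or of 5 weeks in place of the 10-week one. All of them use the same null array, and these 2 comparators differ from it in age as well as genotype. The 5-week wild-type array also held Xist, which the 10-week null array did not, so medians against it mix genotype with age and apparent sex.

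Some spots that were bright on only 1 array lay side by side on it. On the null 10-week array 106 spots exceeded all other arrays at least 4-fold, and 55 of them lay within 2 rows and 1 column of another such spot. On the wild-type 10-week array the numbers were 220 and 84. Probes with a single spot in such groups stood for 120 genes, of which 8 were measured on both 10-week arrays and 1, Fgb, belonged to a gene list. Named genes in such groups are marked where they appear, and their part in the result was not tested.

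Of 31679 genes and unnamed transcripts, 17110 were well above background on both 10-week arrays. At a 2-fold difference 735 were higher (4.3%) and 901 lower (5.27%) in the null array, and at 4-fold 169 were higher (0.988%) and 160 lower (0.935%). The 2-fold shares are those to set beside each list count below. The median difference was 0.01, and 71.2% of genes lay within 0.5 of 0 on the log2 scale. Scaling to the array median instead raised the median of all genes to 0.12 and the higher genes among those past 2-fold from 44.9% to 55.9%. Another 1379 genes were above background only on the wild-type array and 538 only on the null array. Among these 1917 genes the bound reached 2-fold for 243 that were higher (12.7%) and 339 that were lower (17.7%). Samples of the same genotype differed as well. Past 2-fold, the wild-type array of 10 weeks differed from that of 5 weeks in 7.03% of genes and from that of 50 weeks in 6.12%, against 9.56% between the genotypes at 10 weeks. The null array of 10 weeks differed from those of 5 and 50 weeks in 5.7% and 3.12%. Among 286 genes within 20 Mb of A4gnt, 9.79% passed 2-fold, against 9.56% of the other 16824.

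**Figure D1:**
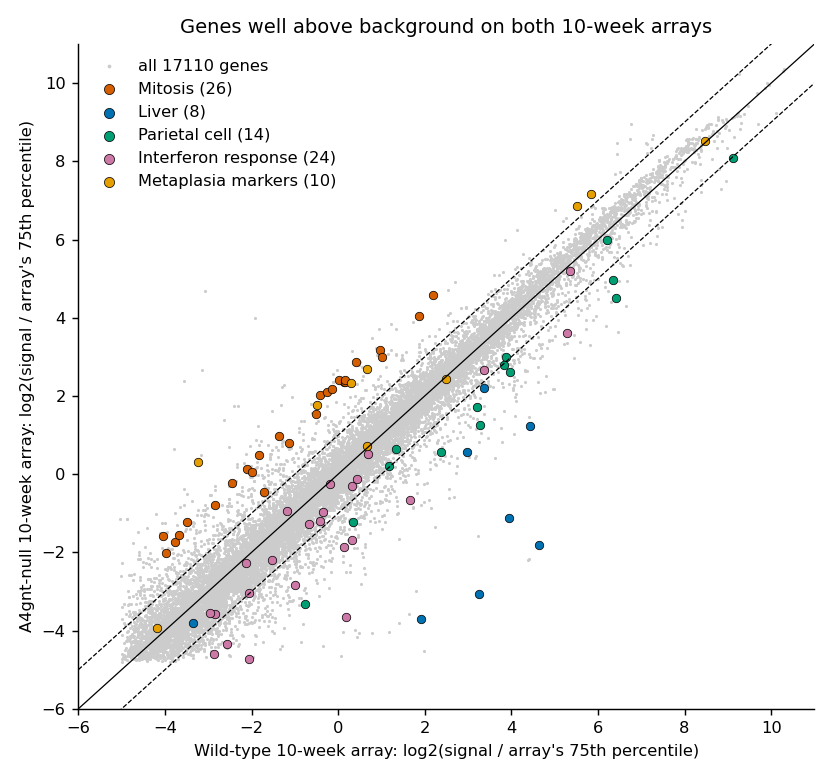
Log2 signal over the array's 75th percentile on the wild-type (x axis) and null (y axis) 10-week arrays for the 17110 genes above background on both, with members of 5 gene lists coloured, the line of equality solid and 2-fold lines dashed. All 26 mitosis genes lie above the upper dashed line, all 14 parietal genes lie below equality, and the liver genes lie farthest below.

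Genes of the acid-secreting parietal cell were lower in the null array. All 14 members measured on both arrays were lower, 10 of them past 2-fold and 0 past 2-fold upwards, with a median of -1.38 against 0.01 over all genes, of which 5.27% were lower past 2-fold. Atp4a, the catalytic subunit of the gastric proton pump, read 30614 units in the wild type and 7448 in the null, a difference of -1.91. Atp4b, its other subunit, read 199416 and 89206, a difference of -1.04. Both pump subunits were thus lower, and so were channels and transporters of the same cell. The anion exchanger Slc26a7 had the largest difference of the list, from 209.9 to 32.5 units (-2.56), followed by the chloride transporter Slc26a9, from 3476 to 778 (-2.04). The nuclear receptor Esrrg differed by -1.80, the water channel Aqp4 by -1.58 and the potassium channel Kcnq1 by -0.88. The remaining 2 members, named after their values were seen, were above background only in the wild type, with bounds of 2.48-fold for the histamine receptor Hrh2 and 2.33-fold for the somatostatin receptor Sstr2. In bulk RNA, fewer cells of a type and less RNA per cell cannot be told apart. The median was -0.70 with the wild-type array of 50 weeks and -1.59 with that of 5 weeks in place of the 10-week one. The direction was thus the same with all 3 wild-type arrays, each set against the same null array on the other slide.

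Chief cell genes went both ways. Of 8 measured, 3 were lower past 2-fold and none higher, with a median of -0.55. Intrinsic factor, Cblif, which carries vitamin B12, read 87491 and 29684 units (-1.43). The protein disulfide isomerase Pdia2 differed by -1.61 and the secretory-cell transcription factor Bhlha15 by -1.11. The pepsinogen Pgc read 392431 and 196942 units (-0.87), with its probes ranging from -1.74 to -0.87, whereas the pepsinogen Pga5 read 2202 and 3005 (0.57).

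Hormone genes of the enteroendocrine cells were lower in the null sample for the most part. Of 13 measured, 6 were lower past 2-fold and none higher, and the median was -0.98. Gast, the gastrin gene of antral G cells, read 7039.6 units in the wild type and 2817 in the null (-1.20), and the somatostatin gene Sst read 11511 and 4501 (-1.23). Ghrl, the ghrelin gene of X/A-like cells in the stomach body, read 158107 and 73402 units (-0.98). The granule protein Chga differed by -1.26, the monoamine transporter Slc18a2 by -1.47 and the prohormone convertase Pcsk1 by -1.18. The list turned its direction with the comparator, with a median of -0.44 against the wild type of 50 weeks and 0.12 against that of 5 weeks. Between the genotypes at 5 and at 50 weeks it was 0.27 and -0.87, and the difference between ages was not tested for the list.

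Mucous cells of the glands stood higher in the null array. All 8 listed genes were higher and 4 passed 2-fold, with a median of 1.04. The gland mucin Muc6, the main carrier of the sugar that A4gnt adds, read 3653 units in the wild type and 6532 in the null (0.96). Its companion peptide Tff2 differed by 0.96, from 219928 to 392522 units. Both lay just under 2-fold. Above it were the secreted protein Gkn3 (39029 and 162722 units, 2.18), the water channel Aqp5 (2307 and 9955 units, 2.23), the mucin glycosyltransferase Galnt6 (1.12) and the trypsin inhibitor Spink1 (1.64). The median was 0.89 against the 50-week and 1.67 against the 5-week wild type.

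Surface mucous cell genes differed little. Of 13, 1 passed 2-fold, Psca, a surface glycoprotein, at 47035 and 18919 units (-1.19). The surface mucin Muc5ac differed by -0.26, the trefoil peptide Tff1 by 0.04 and the secreted protein Gkn1 by 0.04, and the list median was 0.01. The surface list thus lay at the median of all genes while the gland mucous list lay above it and the parietal list below.

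Transcription factors that mark regions of the gut tube differed in part. Pdx1, a factor of the antrum, duodenum and pancreas, read 41.5 units in the wild type and 155 in the null (2.02), and Nkx6-3, a factor of antral endocrine cells, read 1440.5 and 3015 (1.19). The Iroquois factor Irx3 read 131 and 23.8 units (-2.33), and its relatives Irx2 and Irx5, the latter named after its value was seen, were above background only in the wild type, with bounds of 4.64-fold and 2.61-fold. Gata4, present throughout the glandular epithelium, differed by -0.15, and Sox2, a factor of the foregut, by 0.57. Of 15 such factors measured, 2 were higher past 2-fold and 1 lower, with a median of 0.02. The labels do not give the share of body and antrum in each sample, and its part in the parietal, chief and gland mucous differences was not tested.

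Genes used as markers of metaplasia, the replacement of 1 mature cell type by another, were mostly higher. Of 10, 6 were higher past 2-fold and none lower, with a median of 1.34 (0.82 and 1.76 against the wild types of 50 and 5 weeks). Cftr, a chloride channel, read 37.97 units in the wild type and 407 in the null (3.55). The membrane mucin Muc4 read 254 and 1122 (2.27), the hyaluronan receptor Cd44 570.5 and 2117 (2.02) and the junction protein Cldn7 436 and 1649 (2.04). The antioxidant enzyme Gpx2 differed by 1.34 and the scavenger receptor protein Dmbt1 by 1.33.

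Intestinal genes split. Of 12 measured, 3 were higher and 4 lower past 2-fold, against 4.3% and 5.27% of all genes. The brush border alkaline phosphatase Alpi read 72.2 units in the wild type and 1102 in the null (4.06), the surface antigen Gpa33 897 and 2723 (1.73), and the microvillus protein Vil1 1797 and 4305 (1.39). The intestinal transcription factors Cdx2 (2.25 and 94.5 units) and Cdx1 (4.73 and 21.7 units) were above background only in the null, with bounds of 9.65-fold and 2.21-fold. Lower were the apolipoproteins Apoa4 (319 and 57.6 units, -2.34) and Apoa1 (-1.66), and the fatty acid carrier Fabp1 (-1.53). The lower genes include 3 that liver also makes (Apoa4, Apoa1 and Fabp1), and liver genes were high on the same wild-type array. Their part in the split was not tested. The list's median of 0.54 turned to -0.39 against the 50-week wild type and was 0.82 against the 5-week one.

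Stem cell and Wnt target genes had a median of 0.00. Past 2-fold, 1 of 15 was higher and 2 lower, against 4.3% and 5.27% of all genes. The antral stem cell receptor Lgr5 read 112 and 104 units (0.01).

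**Figure D2:**
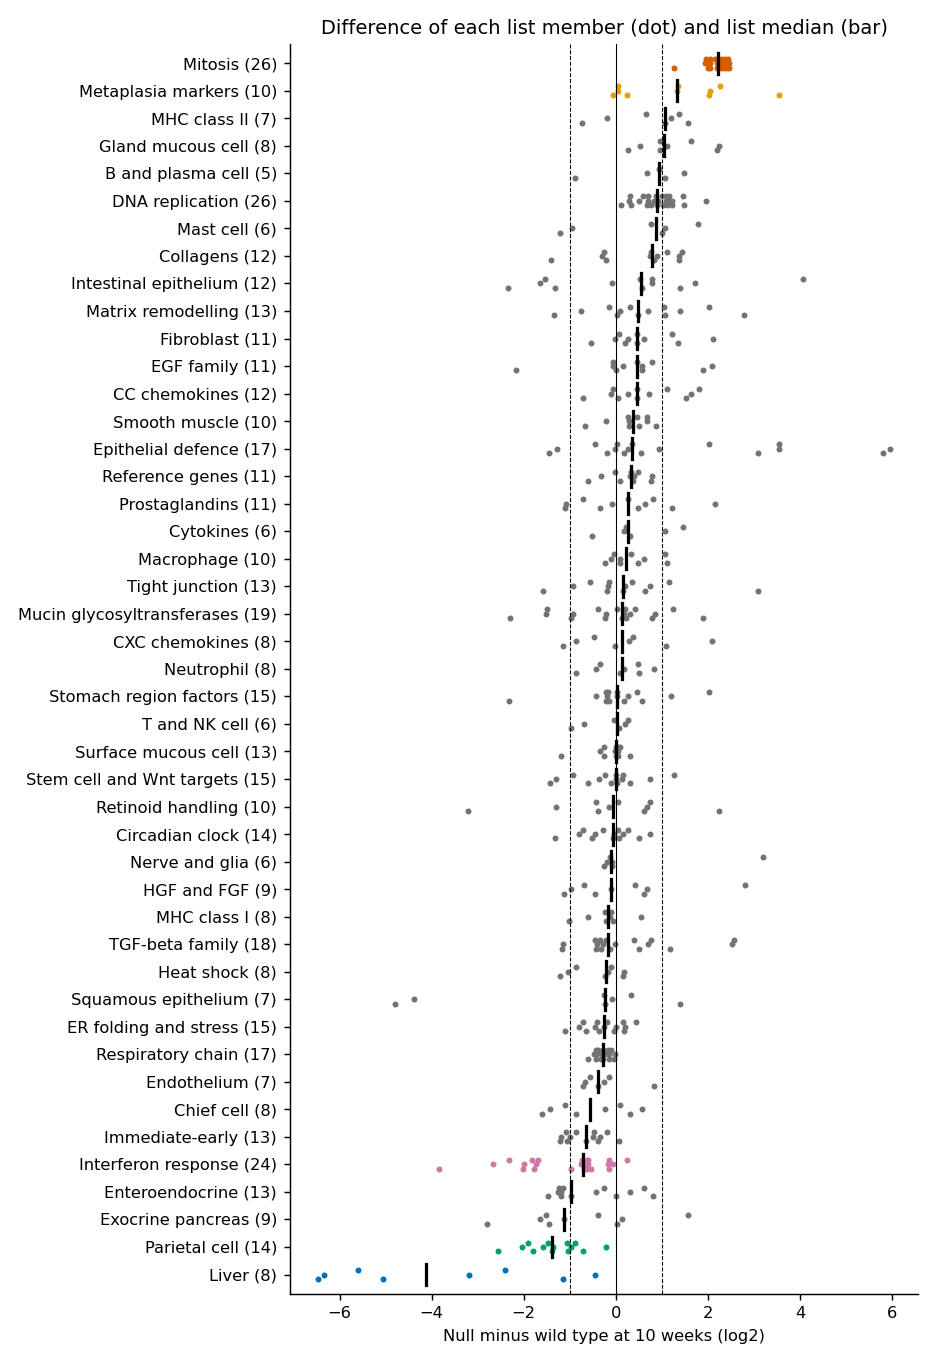
Null minus wild-type difference at 10 weeks (log2, x axis) of each list member above background on both arrays (dots), with the list median as a black bar, the number of members in brackets and 2-fold differences dashed. The mitosis dots lie together at the right, from 1.26 to 2.46, while epithelial defence genes spread from -1.46 to 5.95 around a median of 0.35.

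Genes of mitosis were higher together in the null array. All 26 of the 29 listed genes that were measured on both arrays were higher in the null past 2-fold, between 1.26 and 2.46, with a median of 2.22, where 4.3% of all genes were higher past 2-fold. The kinase Plk1 read 478 units in the wild type and 2409 in the null (2.46), and the motor protein Kif11 read 21.7 and 109 (2.45). The cyclins Ccnb1 (268 and 1324 units, 2.43) and Ccna2 (363 and 1743 units, 2.39) and Birc5, a subunit of the chromosomal passenger complex (1624 and 7792 units, 2.39), followed. Top2a, the topoisomerase that untangles replicated DNA, read 82.7 and 360.1 (2.25). Of the other 3 members, Aurkb, the kinase of the same complex as Birc5 and named after its value was seen, was above background only in the null, at a bound of 1.91-fold, and 2 were below background on both.

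Genes of DNA replication were also higher, by less. All 26 were higher and 12 passed 2-fold, with a median of 0.90. Thymidine kinase, Tk1, read 710.1 and 2509 units (1.95) and the ribonucleotide reductase subunit Rrm2 993 and 2556 (1.49). The polymerase subunits Pole and Pola1 differed by 1.46 and 1.21 and the histone chaperone subunit Chaf1a by 1.22. The helicase subunits Mcm2, Mcm3 and Mcm4 differed by 0.59, 0.88 and 0.77, all under 2-fold.

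These differences depended on which wild type was used. The summed mitosis signal was 22.4, 23.7 and 83.3 times the 75th percentile on the wild-type array of each age (5, 10 and 50 weeks) and 46.1, 113 and 117 on the null arrays. The null arrays of 10 and 50 weeks were thus close to each other, while the wild type of 10 weeks lay near that of 5 weeks and below that of 50 weeks. Against the wild type of 50 weeks the mitosis median was 0.46 and the replication median 0.38, and against that of 5 weeks 2.33 and 1.48.

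Promoters of mitosis genes are known to carry a cell cycle genes homology region near CCAAT boxes. In RefSeq windows of 250 bases before to 50 after the start site (GRCm38.p6), the letters TTTGAA were found on either strand in 19 of 25 windows of mitosis genes (76%) and in 17.9% of all 32851 windows. CCAAT was found in 21 of the 25 (84%) and in 37.4% of all. Of the 26 windows of replication genes, 11.5% held TTTGAA and 57.7% CCAAT. Neither motif contains the other. A match describes letters and not a bound site. Stretches from 4 members that lie wholly upstream of the start are shown, 5′ to 3′ on the gene's strand, with every match to TTTGAA on either strand in capitals: Top2a (chr11:99024333-99024398, minus strand), Ccnb2 (chr9:70421686-70421751, minus strand), Mki67 (chr7:135716460-135716525, minus strand) and Cdk1 (chr10:69352948-69353013, minus strand).

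Top2a: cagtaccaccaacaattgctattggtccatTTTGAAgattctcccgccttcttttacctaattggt
Ccnb2: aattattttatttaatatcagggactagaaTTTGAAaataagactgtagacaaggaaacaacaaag
Mki67: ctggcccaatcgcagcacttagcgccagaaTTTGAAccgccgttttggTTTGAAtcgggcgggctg
Cdk1: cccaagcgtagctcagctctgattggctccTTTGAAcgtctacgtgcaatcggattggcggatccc

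These 4, chosen after their values were seen, encode the topoisomerase named above, a mitotic cyclin, the proliferation marker Ki-67 and the kinase that drives entry into mitosis. They differed by 2.25, 2.22, 2.19 and 1.93.

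Genes induced by interferon were lower in the null array. The secreted interferons act through receptors that activate transcription factors, Irf9 among them, which bind response elements in the promoters of antiviral genes. Of 24 such genes measured on both arrays, 23 were lower and 1 higher, 9 lower past 2-fold and none higher, with a median of -0.71. The RNA sensor enzyme Oas2 read 405 units in the wild type and 26.1 in the null (-3.83). The antiviral protein Rsad2 read 85.9 and 12.4 (-2.67) and the ubiquitin-like protein Isg15 1137 and 208 (-2.33). The receptor chaperone Rtp4 and the Oas relative Oasl2 read 394 and 444 units in the wild type and 89.8 and 102 in the null, and the transcription factor Irf7 differed by -1.78, from 60.7 to 16.2 units. Irf9 itself differed by -0.18. Among the 3 members above background only in the wild type, the bound passed 2-fold for 2, Mx2 (2.48-fold) and Ifit1 (2.17-fold), both antiviral proteins named after their values were seen. The median was -0.60 against the wild type of 50 weeks and -1.94 against that of 5 weeks, below 0 with each wild-type array.

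The core of the interferon-stimulated response element, GAAANNGAAA on either strand, was found in 13 of 24 RefSeq windows of these genes (54.2%) and in 3.44% of all windows. The same letters were in 4% of mitosis windows. Stretches upstream of the start are shown for 4 members, with every match in capitals, overlapping matches run together: Rsad2 (chr12:26456533-26456602, minus strand), Isg15 (chr4:156200857-156200926, minus strand), Ifit3 (chr19:34583377-34583446, plus strand) and Bst2 (chr8:71537563-71537632, minus strand).

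Rsad2: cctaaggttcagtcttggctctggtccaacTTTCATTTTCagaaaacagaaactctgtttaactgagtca
Isg15: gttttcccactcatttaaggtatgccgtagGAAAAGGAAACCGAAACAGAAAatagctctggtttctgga
Ifit3: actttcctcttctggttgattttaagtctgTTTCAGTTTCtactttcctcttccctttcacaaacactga
Bst2: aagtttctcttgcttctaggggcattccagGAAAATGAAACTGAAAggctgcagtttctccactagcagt

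Rsad2 and Isg15 lie among the largest differences of the list, Ifit3, an antiviral protein (-1.74), in between, and Bst2, which tethers budding viruses to the cell surface, under 2-fold (-0.55). All 4 were chosen after their values were seen.

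Secreted defence proteins held several of the largest differences upwards. The antibacterial lectin Reg3b read 30.4 units in the wild type and 1719 in the null (5.95), and Reg3g read 145 and 1547 (3.54). The regenerating protein Reg1 read 150.4 and 1597 (3.53). The acute-phase proteins Saa3 (40.5 and 2074 units, 5.80) and Saa1 (99.7 and 773 units, 3.08) were higher too, although Saa1 is also a liver product and liver genes were lower in the null. Other members did not follow, and the list median was 0.35, with 6 of 17 higher and 2 lower past 2-fold. Reg2 and Reg3a were not well above background on either 10-week array. On the 5-week and 50-week wild-type arrays Reg1 read 3507 and 413 units and Reg3b 384 and 45.4, so the wild type of 10 weeks was the lowest of the 3 for both genes. The list median was 0.08 against the wild type of 50 weeks and -0.44 against that of 5 weeks.

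Chemokines that passed 2-fold were mostly higher in the null array. Of 8 CXC chemokines measured, 2 were higher and 1 lower past 2-fold, and of 12 CC chemokines 4 were higher and none lower. Over all genes 4.3% were higher and 5.27% lower. At any size 4 CXC members were higher and 4 lower, with a median of 0.13, and 0.02 and -0.25 against the wild types of 50 and 5 weeks. The CC median was 0.45, and 0.58 and 0.33 against those wild types. The neutrophil attractant Cxcl1 read 35.7 units in the wild type and 138 in the null (2.08), and the monocyte attractant Ccl2 read 31.9 and 103 (1.81). Ccl21a, which draws lymphocytes and dendritic cells, differed by 1.62, Ccl17 by 1.52 and Ccl4 by 1.11. Cxcl14 differed by 1.09, and Cxcl12, which retains stem and immune cells, was lower on the probe used (-1.16), with its probes ranging from -1.16 to -0.22. Of 25 cytokines, 17 were below background on both arrays. Interleukin Il11, which acts on epithelium and stroma, read 169.8 and 430.1 (1.47) and Il1b 68.2 and 130.1 (1.06), whereas Il33 differed by 0.30 and Il18 by -0.52.

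A few growth factor genes passed 2-fold, in opposite directions within each family. In the EGF family, whose ligands act on receptors of epithelial cells, neuregulin Nrg1 read 191 and 740.4 units (2.08) and Nrg4 55.5 and 189.7 (1.90), while Egf read 119 and 24.4 (-2.16). Amphiregulin, Areg, differed by 0.57 and epiregulin, Ereg, by 0.78. Among fibroblast growth factors Fgf7, which acts on epithelium, read 28.4 and 181 (2.80), whereas Fgf18 and Fgf9 differed by -1.12 and -0.97. Hepatocyte growth factor, Hgf, was above background only in the null (11.6 and 61.9 units, at least 5.83-fold). In the TGF-beta family the antagonists Grem1 (70.7 and 370.3 units, 2.51) and Fst (101 and 549 units, 2.57) were higher, and the ligands Bmp5 and Inhbb differed by 1.18 and -1.16. Past 2-fold, 2 of 11 measured genes of the EGF list were higher and 1 lower. Of 9 in the HGF and FGF list 1 was higher and 1 lower, and of 18 in the TGF-beta list 3 and 2. Over all genes 4.3% were higher and 5.27% lower. The medians of the EGF, HGF and FGF, and TGF-beta lists were 0.46, -0.11 and -0.17.

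Stroma and matrix genes were higher in part. Of 12 collagen genes measured, 4 were higher and 1 lower past 2-fold, against 4.3% and 5.27% of all genes. Their median was 0.79. Col3a1, of the fibrils of loose tissue, read 646 and 1526 units (1.36), Col18a1, of basement membranes, 1523 and 3763 (1.43), and Col7a1, of anchoring fibrils, 509 and 176 (-1.41). The main fibrillar chains Col1a1 and Col1a2 differed by 0.75 and 0.90. Among matrix proteases, Mmp3 read 30.03 and 189 units (2.78) and Mmp10, a related stromelysin, was above background only in the null (7.22 and 297 units, at least 30.3-fold). The urokinase Plau differed by 2.03, Mmp14 by 1.39, the inhibitor Timp1 by 1.07 and Mmp11 by -1.34. Fibroblast genes had a median of 0.46, with 3 of 11 higher past 2-fold (S100a4 2.11, Lum 1.36, Thy1 1.21) and none lower. Smooth muscle genes differed by 0.37 in the median, with 0 of 10 past 2-fold, and endothelial genes by -0.38, with 0 of 7. Both directions turned with the wild type of 50 weeks. The smooth muscle median was -0.32 and 2.44 against the wild types of 50 and 5 weeks, and endothelium 0.57 and -0.11.

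Immune cell lists gave small counts. The antigen-presenting MHC class II genes had a median of 1.06, with 4 of 7 higher past 2-fold, against 4.3% of all genes. That median was 0.23 and 0.71 against the wild types of 50 and 5 weeks, and 0.66 with normexp background. H2-Ab1 read 464 and 1102 units (1.37) and H2-Aa 28.9 and 77.8 (1.56), while their activator Ciita read 24.3 and 13.3 (-0.74). MHC class I genes had a median of -0.17. Of 6 mast cell genes measured, 4 were higher and 2 lower, 3 and 1 of them past 2-fold, with a median of 0.88. That median was 0.50 with averaged probes, and 0.25 and 1.68 against the wild types of 50 and 5 weeks. The proteases Mcpt2 (289.8 and 908 units, 1.77) and Mcpt4 (182 and 335 units) were higher, whereas the receptor Kit (-1.21) and Cpa3 (-0.95) were lower. Macrophage genes had a median of 0.22 and neutrophil genes of 0.13. Against the wild types of 50 and 5 weeks these were 0.75 and 0.41 for macrophages and 1.39 and 0.65 for neutrophils. Cd79a of B cells and Cd3d of T cells were not well above background on either array, so these arrays give no measured difference for these 2 genes. Of 6 T and NK cell genes measured on both, 3 were higher and 3 lower, 0 past 2-fold, with a median of 0.02. Another was higher by a bound past 2-fold. The median of 0.93 over 5 B and plasma cell genes turned to -0.75 against the 5-week wild type.

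Enzymes that build mucin O-glycans, other than A4gnt, split between directions. Of 19 measured, 11 were higher and 8 lower, 2 and 3 of them past 2-fold, with a median of 0.13. The shares past 2-fold over all genes were 4.3% higher and 5.27% lower. The fucosyltransferase Fut9 read 256 and 47.6 units (-2.30), B4galnt2, which adds N-acetylgalactosamine to chain ends, 3361 and 1071 (-1.53), and the sialyltransferase St3gal1 890.1 and 292 (-1.49). Higher were the sulfotransferase Chst4 (345 and 1174 units, 1.89) and the sialyltransferase St3gal4 (23.4 and 50.9 units, 1.25). Enzymes that start the chains, Galnt1, Galnt3 and Galnt4, differed by 0.85, 0.17 and 0.13. Among membrane mucins Muc13 read 119.9 and 446 units (2.02) and Muc1 606 and 374 (-0.57).

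Other epithelial lists added single differences. The tight junction pore protein Cldn2 read 143 units in the wild type and 1114 in the null (3.08), in a list with a median of 0.16. The inducible prostaglandin synthase Ptgs2 read 17.9 and 73.3 (2.16), whereas Hpgd, which degrades prostaglandins, read 3949 and 1718 (-1.08). In retinoid handling, the degrading enzyme Cyp26b1 read 17.1 and 74.2 (2.24) and the plasma carrier Rbp4, a liver product, 4422 and 439 (-3.21).

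Housekeeping and stress lists were read as well, though such small lists do not measure the spread between samples. Reference genes differed by up to 0.78, for Gusb, with a median of 0.33 against 0.01 over all genes. Of 11, 8 were higher and 3 lower, and 0 passed 2-fold. All 17 respiratory chain genes, which are abundant in parietal cells, were lower, with a median of -0.29 and 0 past 2-fold. With scaling to the array median the respiratory chain median was -0.17. Immediate-early genes, which respond within minutes to handling and other stimuli, were lower in 12 of 13, 4 past 2-fold, with a median of -0.64. The receptor Nr4a1 read 1716 and 687 units (-1.19) and Fos 1380.4 and 1001 (-0.34). Against the wild types of 50 and 5 weeks that median was 0.03 and 0.23. Of 8 heat shock genes, 2 were lower past 2-fold and 0 higher, with a median of -0.21. Against the wild types of 50 and 5 weeks that median was -0.32 and 0.305. Hspa1a, with the largest difference of the list, read 81.4 and 32.3 units (-1.21).

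Genes of the liver held most of the largest differences downwards. Albumin, Alb, read 3424 units on the wild-type and 38.99 on the null 10-week array (-6.33), and the protease inhibitor Serpina1a 8906 and 92.7 (-6.46). On the other wild-type arrays Alb read 236 and 394 units at 5 and 50 weeks. All 8 liver genes measured on both arrays were lower, 7 past 2-fold, and all 4 others were lower by a bound past 2-fold. The list median of -4.13 was -1.01 and -1.49 against the wild types of 50 and 5 weeks. Of 7 squamous genes measured on both arrays, 2 were lower and 1 higher past 2-fold. Their median of -0.24 turned to 0.46 against the 5-week wild type. Of 6 more members above background on 1 array only, 5 were lower by a bound past 2-fold and 0 higher. With no filter on dim probes the list median was -2.56. The cornified envelope protein Lor read 1235 and 40.99 units (-4.79) and the basal keratin Krt5 470.4 and 20.7 (-4.38), while the factor Trp63 differed by -0.24 and the keratins Krt13 and Krt10 by -0.26 and 0.32 on the probes used, with other probes at -2.74 and -1.57. The cornified envelope protein Ivl was the higher one, at 50.9 and 123 units (1.39). Lor read 2725 on the wild type of 50 weeks and 22.5 on that of 5 weeks. Of 9 genes of the exocrine pancreas, 5 were lower and 1 higher past 2-fold, with medians of -1.13, and -1.99 and -4.01 against the wild types of 50 and 5 weeks. Their summed signal on the wild-type 10-week array (145 times the 75th percentile) was below that of the 5-week and 50-week wild types (644 and 434), unlike the liver genes. Amy2a5, the pancreatic amylase, read 31295 and 4104 units (-2.81), whereas Cela2a, an elastase of the acinar cell, was below background on both arrays. Whether other tissue was taken with the wild-type mucosa, and its part in the result, was not tested.

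Among the largest differences outside the lists, the secreted protease inhibitor Wfdc18 read 42.1 units in the wild type and 8467 in the null (7.77), and Prap1, a secreted acidic protein, read 93.7 and 5226 (5.93). Both were also higher in the null at 5 (5.04 and 4.23) and 50 weeks (3.72 and 1.46). The serine protease Prss28 read 25.9 and 509.7 units (4.42), the Il33 receptor Il1rl1 67.6 and 1089 (4.13) and the neuronal pentraxin Nptx2 10.9 and 149 (3.90). For Il1rl1, the probes ranged from 1.78 to 4.13. The acid phosphatase Acpp, the nucleoside transporter Slc28a3, the glial protein S100b, Tmem213 and the lectin Clec2f differed by 3.73, 3.22, 3.19, 3.15 and 3.14.

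The bounds upwards were led by spots that lay in groups bright on this array alone. Olfr1023 (at least 57.1-fold), Kctd18 (53.8), Rpl10l (51.3) and Fgf12 (30.7) all lay beside other such spots, as did Cnot9 (3.64) and Ces3b (3.18) among the measured differences. Away from such groups, the axon guidance protein Ntng1 read 4.55 and 326 units (at least 33.3-fold), and Gp2, a surface receptor for bacteria on M cells that pancreas also makes, read 10.2 and 208 (at least 21.2-fold). The alpha-defensins Defa40 and Defa3 and the NK cell receptor Klrb1c had bounds of 16.9-, 14.3- and 15.5-fold.

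Downwards, the 20 largest measured differences of genes with a symbol, apart from Oas2, Lor and Krt5, were of genes that liver is known to express, and so were the 10 largest bounds except that of the keratinocyte protein Krtdap (at least 41.3-fold). They include the betaine enzyme Bhmt (1401 and 14.3 units, -6.49), the apolipoproteins Apoc3 (-5.60) and Apoc1 (-4.83) and the fatty acid hydroxylases Cyp4a10 (-5.21) and Cyp4a31 (-5.20). An unnamed transcript in a group of bright spots on the wild-type array also ranked with them. Serpina1a, Serpina1c and Serpina1e (-6.46, -6.42 and -6.58) are near-identical copies whose probes may not separate them. Another probe of Serpina1a gave -5.07 and of Serpina1e -5.57. The hydroxylase Cyp4a14 had a bound of 267-fold and the IGF-binding protein Igfbp1 of 188-fold. Fgb and Cyp2e1 (76.1- and 115-fold) lay beside each other on the wild-type array, both bright on that array alone.

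Set beside the other ages, the genes past 2-fold at 10 weeks mostly kept their direction. Of the 735 genes higher at 10 weeks, 606 were measured at 5 weeks and 509 of them (84%) were higher there. At 50 weeks 694 were measured and 619 (89.2%) were higher. Of all genes measured at 5 and 50 weeks in turn, 48.8% and 50.6% were higher and 51.2% and 49.4% lower. Past 2-fold the shares of the 735 were 30.7% and 22.5%, against 3.57% and 1.98% of all genes measured at both ages in turn. Of the 901 lower genes, 80.1% of those measured at 5 weeks and 92.6% at 50 weeks were lower, and 16.7% and 45.9% past 2-fold, against 4.74% and 4.05% of all genes. These comparisons share no array, although all wild-type arrays lay on 1 slide and all null arrays on the other. The 5-week arrays, unlike the 10-week ones, held Xist (161 and 66.7 units), so sex appeared to differ between these ages.

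**Figure D3:**
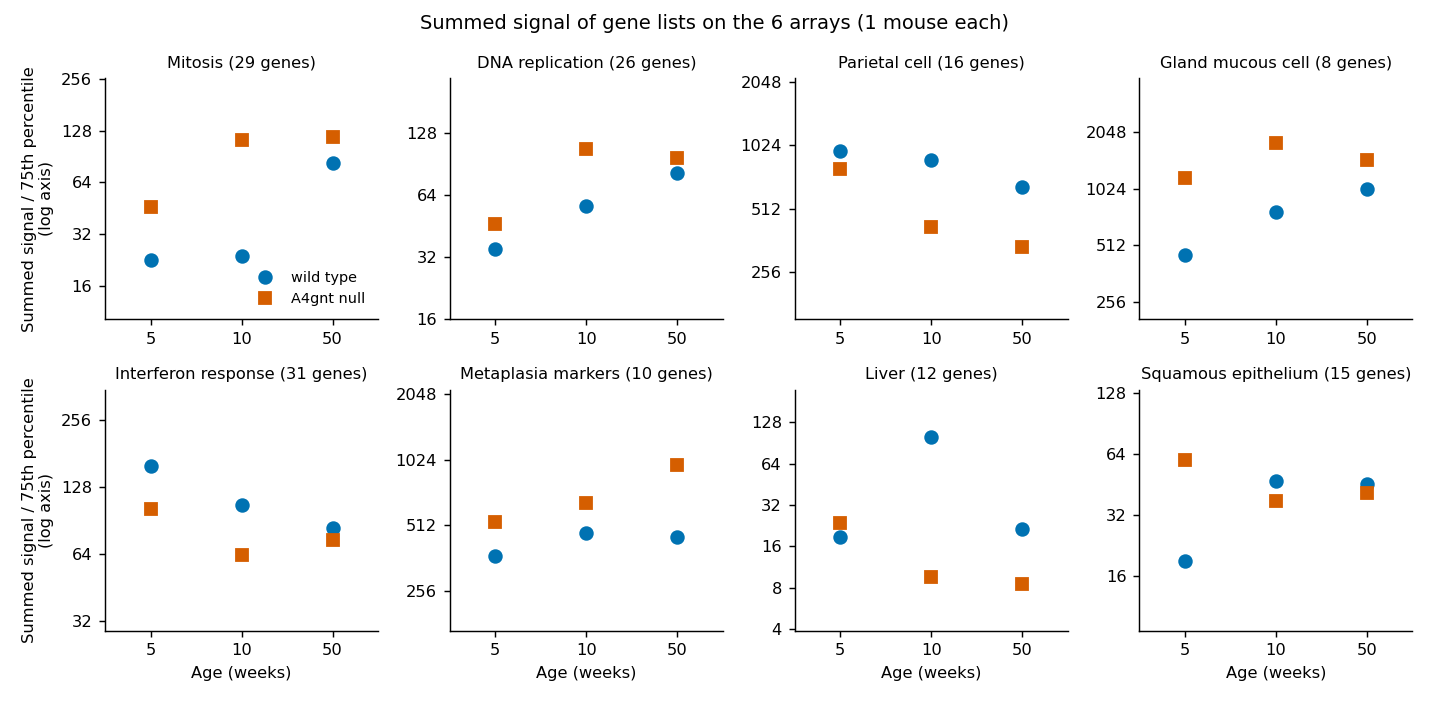
Summed processed signal of 8 gene lists over the array's 75th percentile (y axis, log scale) on the wild-type (blue circles) and null (orange squares) arrays of 5, 10 and 50 weeks, 1 array per point and no error bars. The wild-type 10-week point is the lowest but for 5 weeks in mitosis (23.7 against 22.4) and the highest of 6 in liver genes (100.2).

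Whether a gene's difference at 10 weeks departed from the mean of those at 5 and 50 weeks was tested with limma, by crossing genotype with being 10 weeks old. With limma and Benjamini-Hochberg adjustment, 0 of 17852 genes tested passed 0.05 (0%), with adjusted p-values of 0.998 or more, while 886 (4.96%) reached 0.05 before adjustment. Under 6 alternatives the counts were also 0. The fit has 1 residual degree of freedom, so it says little on any gene. Of the 12 largest crossed terms by moderated t among genes with a symbol, 6 in each direction, 11 rested on at least 1 array where the probe was not well above background, and the other, Usf1, on a spot in a bright group, so their sizes are not given. Upwards they belonged to Gp2, Cdx2, Necab3, which also lay in a bright group, Usf1, Stxbp5l and the histone gene H3c8, and downwards to Hspa1a, Cxcl1, Scgb3a1, Tead4, Irx2 and Flvcr2. Gp2 read 1611 and 280.2 units on the wild-type arrays of the other ages. For Cxcl1 the wild-type signal was well above background at 10 weeks and not at 5 or 50 weeks.

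**Figure D4:**
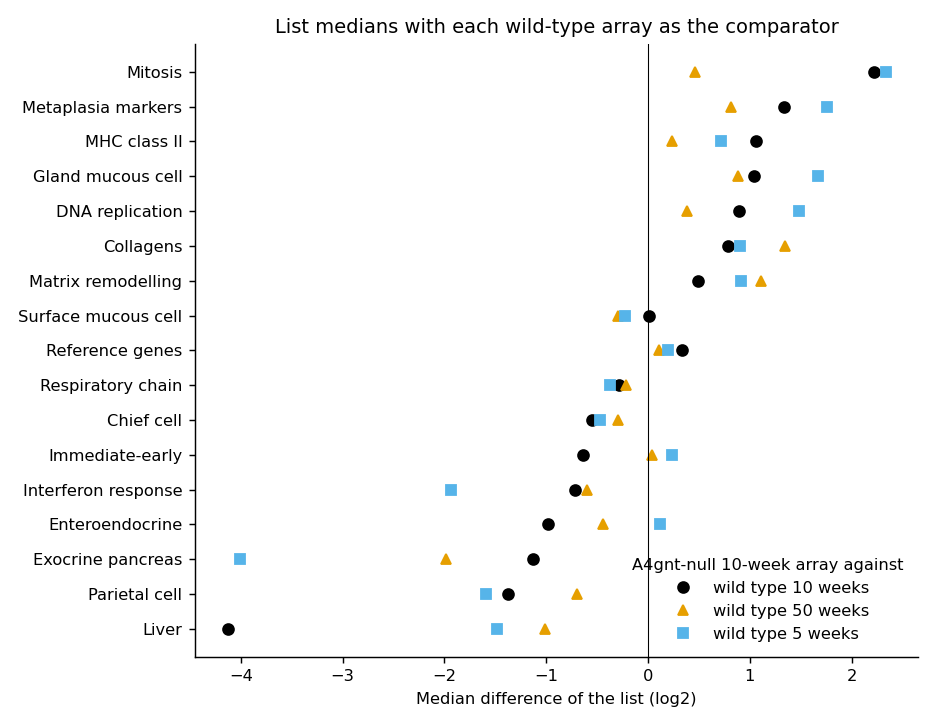
Median null minus wild-type difference (log2, x axis) of 17 gene lists for the null 10-week array against the wild-type arrays of 10 (black circles), 50 (orange triangles) and 5 weeks (blue squares). Parietal and interferon medians lie below 0 and metaplasia and gland mucous medians above 0 with every comparator, while the liver median moves from -4.13 to -1.01 and the immediate-early median crosses 0.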

How the data were processed

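Total RNA of gastric mucosa was labelled with Cy3 and hybridised to Agilent 1-colour mouse arrays, per the labels' protocols. The authors' deposited scanner files hold the processed signal, a background-subtracted intensity from Feature Extraction 10.7.1.1, per the file headers, with probe positions on mm9 (NCBI37). The deposited series table holds log2 values equal to the log2 processed signal plus a constant for each array (-8.54 to -7.88, within 0.01 for 100% of 39030 probes), with column medians of -3.89 to -3.56. What that constant was taken from is not given in the sources used here.

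Control spots and outlier spots were left out, replicate spots averaged, 30 of 39429 probes dropped and log2 signals set against each array's 75th percentile. A probe was named through its accession (26164), symbol (3123) or synonym (910) in RefSeq, and otherwise kept the array's name (9232). Where a gene had several probes, the one with the highest mean log2 signal over the arrays stood for it, and for 4.43% of 3406 such genes the probes lay over 1 apart. With 1 array a side no test was run at 10 weeks. The crossed term used limma 3.58.1 in R 4.3.3 with Benjamini-Hochberg adjustment, and its script was tested on simulated data. Named were A4gnt, the 20 largest differences and 10 largest bounds per direction, up to 5 members and the 3 leading markers of each of 49 lists, and 6 crossed terms per direction. The members and lists were chosen with earlier results of these data known. Alternatives were quantile and median scaling, normexp with an offset of 50, the deposited table, the mean of a gene's probes, no filter on dim probes or one at 4 times the lowest signal called well above background and, chosen after seeing the data, other wild-type arrays and the removal of grouped spots. Some genes are not reported here.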

Additional observations from a re-analysis of the deposited data

How the results depend on the processing

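No paired analysis was possible because each genotype has 1 array at 10 weeks, and no array could be left out within a group. Counts at 2-fold, 735 higher and 901 lower, became 355 and 494 with normexp background, 1903 and 2487 with no filter on dim probes, and 483 higher with the stricter filter. Counts at 4-fold, 169 and 160, became 59 and 80 with normexp, 474 and 589 with no filter, and 102 and 101 with the stricter filter. With the wild type of 50 weeks in place of that of 10 weeks they were 483 and 418 at 2-fold and 81 and 51 at 4-fold, and with that of 5 weeks 1440 lower at 2-fold and 281 higher at 4-fold. Of 49 lists, 9 had a median of 0.5 or more and 14 with the wild type of 5 weeks. Another 8 had a median of -0.5 or less, against 4 with normexp and 5 with the wild type of 50 weeks. The membrane mucin median turned from -0.57 to 0.13 when a gene's probes were averaged. Among medians of at least 0.5 in size, those that turned went to -0.39 (intestinal) and 0.0348 (immediate-early) with the wild type of 50 weeks, and to 0.12 (enteroendocrine), -0.75 (B and plasma cell) and 0.23 (immediate-early) with that of 5 weeks. Causes were not tested. Counting smaller medians, 15 of 49 lists turned with the wild type of 50 weeks and 15 of 48 with that of 5 weeks. Of 314 named genes, none of those past 2-fold changed direction under the other scalings, filters, background correction or probe averaging. Turns of smaller differences were not counted. Of the 314 values, 176 moved by more than the spread between a gene's probes with normexp, 43 with averaged probes and 35 with quantile normalization. Signals near background, where normexp and the filters act, limit what these arrays show.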
